A study of Mus musculus with 3 samples.

Results

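The 8 genes described here encode RNA-binding proteins that set splice choices in epithelial and mesenchymal cells: Esrp1, Esrp2, Rbfox2, Ptbp1, Mbnl1, Mbnl2, Celf1 and Srsf1. Their members on the array were the probe sets that the platform annotation pairs with exactly 1 symbol among these. That rule found 21 probe sets of 7 genes, out of 28898 probe sets with 1 symbol and 17097 genes. Mbnl2 had none: its probe sets are annotated with a second gene as well, and no value is given for it.

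The study sorted mammary cells by flow cytometry from female mouse embryos at embryonic day 14 and measured their RNA on 3 Affymetrix arrays. The samples form 1 group, CD49fHi Lgr5Hi, and there were no control samples. All embryos carried the Lgr5-IRES-GFP reporter, in which green fluorescence follows the Lgr5 gene, and CD49f is the integrin alpha 6 chain on the surface of basal epithelial cells. Each sample pooled the female embryos of 1 litter, so the 3 arrays are separate litters. Epidermis was digested together with the mammary gland, a sort gave either 813 or 2000 cells with no statement of which sample had which, and the cDNA went through 25 cycles of amplification. The question asked of these data is which of the regulators gave a signal in the sorted cells, and how that signal varied between litters and between probe sets.

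Splicing regulators bind short motifs in a pre-mRNA and favour or block the use of a nearby exon. Esrp1 and Esrp2 are the epithelial splicing regulatory proteins, whose loss shifts transcripts such as Fgfr2, Cd44, Ctnnd1 and Enah to their mesenchymal forms. Rbfox2, Mbnl1 and Celf1 act in many tissues, Rbfox2 and the Mbnl proteins often towards mesenchymal or mature splice forms, and the Celf proteins often against the Mbnl proteins. Ptbp1 mostly represses exons, and Srsf1 is an SR protein that mostly promotes exon inclusion. An array of this kind measures the summed RNA of a gene at its probes and does not show which splice form was made.

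The deposited values are log2 per probe set. Background on each array was the 95th percentile of 78 olfactory and vomeronasal receptor genes, at 6.29, 6.23 and 6.22 on replicates 1, 2 and 3. A gene was called above background where its mean distance from that threshold passed limma's one-sided test after adjustment over all genes (adjusted p under 0.05), and 8972 of 17097 genes did (52.5%). Replicates 1 and 2 were close to each other (median absolute difference 0.098 over all probe sets), and replicate 3 stood apart from both (0.387 and 0.385). The median of genes above background was 0.26 higher on replicate 3 than on the mean of the others in the deposited values, and 0.12 lower after quantile normalization of the 3 arrays, so differences of replicate 3 are read against those medians. The 3' minus 5' difference of the Gapdh control probe sets was -0.06, -0.08 and 0.03 on replicates 1, 2 and 3, and that of beta-actin was -0.56, -0.56 and -0.40. The cells' own markers gave a signal: all 5 of Lgr5, Itga6, Trp63, Krt5 and Krt14 were above background. Levels of different probe sets are not compared with each other.

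All 7 measured regulators were above background, each on all 3 arrays. The share over all genes was 52.5%. Of their 21 probe sets, 18 were above background by the same test run on every probe set, against 46.8% over the array. The exceptions were 1 probe set each of Mbnl1, Celf1 and Srsf1. Against the 99th percentile of the receptor genes, 7 genes (45.8% of all genes) and 17 probe sets (40.3% over the array) were above background, and against the brightest antigenomic control, a probe set with no target in the genome, 7 genes (31.6%) and 15 probe sets (26.3%). Under the higher threshold set by 36 genes restricted to unrelated tissues, 5 of the 7 genes (25.7% of all genes) and 10 of the 21 probe sets (20.5% over the array) were above background, and Esrp1 and Esrp2 were not.

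**Figure D1:**
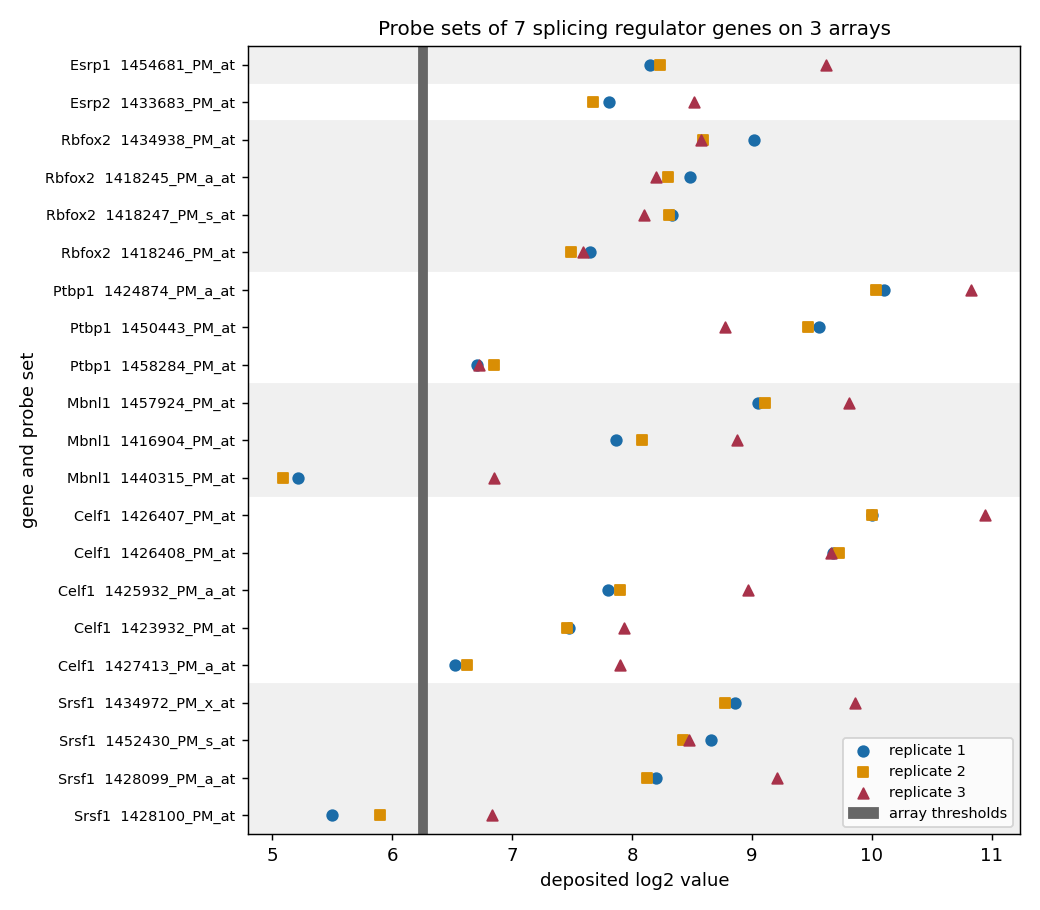
Deposited log2 values (x axis) of the 21 probe sets of 7 splicing regulator genes (y axis), with 1 point per array and the range of the 3 array thresholds as a grey bar. On replicate 3, 13 of the 21 probe sets have their highest value, and 2 probe sets, 1 of Mbnl1 and 1 of Srsf1, lie below the bar on replicates 1 and 2.

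Esrp1 encodes a splicing regulator restricted to epithelial cells, and its single probe set read 8.15, 8.23 and 9.62 on replicates 1, 2 and 3. Replicate 3 was well above the other arrays, which were close together. The mean was 8.67 ± 0.83 (SD, n = 3), which is 2.42 above the threshold with a moderated SE of 0.34 (limma adjusted p = 0.0014). Replicate 3 exceeded the mean of the others by 1.43 in the deposited values and by 1.00 after quantile normalization. In bulk samples such as these, fewer cells of a type and less RNA per cell cannot be told apart.

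Esrp2, the partner that shares many of its targets, read 7.80, 7.67 and 8.51 on replicates 1, 2 and 3. Here too replicate 3 was the highest array. The mean was 8.0 ± 0.45 (SD, n = 3), or 1.75 above the threshold (SE 0.22, limma adjusted p = 0.00088). The excess of replicate 3 was 0.78, and 0.37 after quantile normalization. Without replicate 3 the distance from the threshold was 1.93 for Esrp1 and 1.48 for Esrp2, and both stayed above background. Set against tissue-restricted genes, the distances were 1.15 (adjusted p = 0.068) and 0.48 (adjusted p = 0.240), and neither passed. Against the brightest antigenomic control both passed (adjusted p = 0.0155 and 0.0352).

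Transcription factors known to act on the Esrp genes were mostly detected, repressors and activators of the epithelial state alike. Of 10 measured, 9 were above background (52.5% of all genes), and 6 when tissue-restricted genes set the threshold (25.7%). The repressors Zeb1, Zeb2, Snai1, Snai2 and Twist1, which drive mesenchymal change, were all called at the receptor threshold. The tissue-restricted threshold was 7.62, 7.62 and 7.31 on replicates 1, 2 and 3. Snai1 lay below it on each array, and Snai2 on replicate 1. Zeb1 read 9.19, 8.78 and 8.75 on replicates 1, 2 and 3, and Zeb2 read 9.49, 9.32 and 8.38. Snai1 read 7.36, 7.36 and 6.89. These 3 genes were lowest on replicate 3, the array on which both Esrp genes were highest, but Zeb1 was nearly as low on replicate 2. For Zeb2, 1 of its 4 probe sets was above background. A relation of these genes to the Esrp genes was not tested. Snai2 (7.61 ± 0.16, SD, n = 3) and Twist1 (9.80 ± 0.17) varied less.

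Among the epithelial factors, Grhl2, a grainyhead factor that activates epithelial genes, read 8.81, 9.08 and 10.42 on replicates 1, 2 and 3. Its excess on replicate 3 was 1.47, or 1.05 after quantile normalization, close in size to that of Esrp1. Its relative Grhl1 read 6.97, 7.25 and 7.72, also highest on replicate 3. On replicates 1 and 2 Grhl1 lay below the tissue-restricted threshold. Grhl3 was at 9.52 ± 0.14 (SD, n = 3). Ovol1, a zinc finger factor that represses Zeb genes, went the other way with 10.70, 10.88 and 10.21. Ovol2 read 5.78, 6.34 and 5.97 and was the factor not above background.

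**Figure D2:**
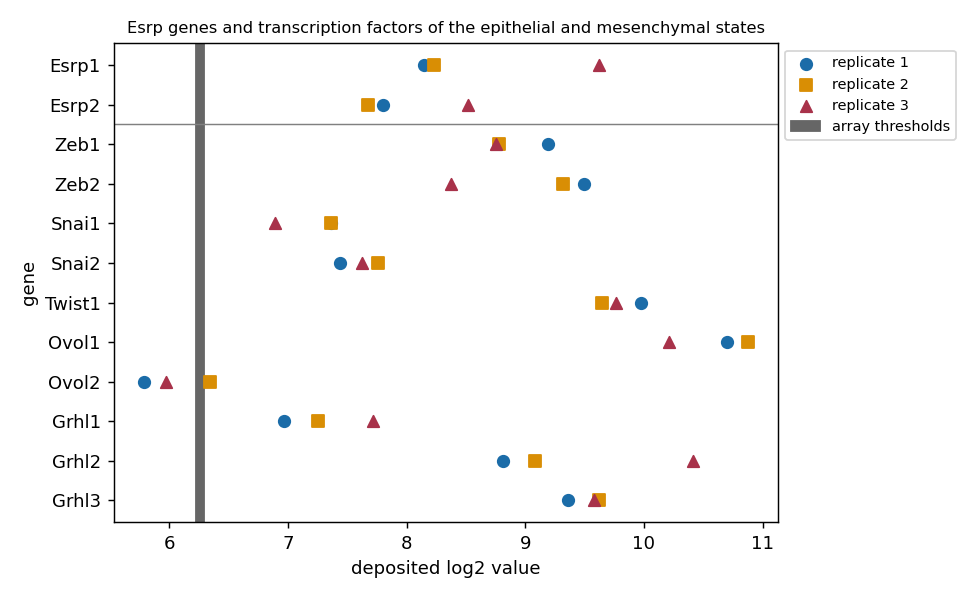
Deposited log2 values (x axis) of Esrp1, Esrp2 and the 10 transcription factor genes (y axis), 1 point per array, with the range of array thresholds as a grey bar. Esrp1, Esrp2, Grhl1 and Grhl2 have their highest point on replicate 3, and Zeb1, Zeb2, Snai1 and Ovol1 their lowest.

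Rbfox2, a regulator that binds near exons switched during mesenchymal transition, had the smallest range over the litters of the 7 genes in the deposited values (0.44), but not after quantile normalization (0.86). Its brightest probe set read 9.02, 8.59 and 8.58 on replicates 1, 2 and 3, so replicate 1 was the high array. The mean was 8.73 ± 0.25 (SD, n = 3), 2.48 above the threshold (SE 0.15, limma adjusted p = 7.31e-05). All 4 of its probe sets were above background. The other 3 had means of 8.33, 8.25 and 7.57 and ranges over the arrays of 0.29, 0.23 and 0.16. Each of the 4 was highest on replicate 1. On replicate 3 the brightest was 0.23 below the mean of the others, and 0.65 below it after quantile normalization. The probe set 1418246_PM_at was the 1 member probe set whose replicate 3 difference turned sign with the scaling, from 0.02 to -0.34.

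Ptbp1, the polypyrimidine tract binding protein, gave a strong signal that its probe sets did not share in detail. Its brightest probe set, 1424874_PM_a_at, read 10.10, 10.03 and 10.83 on replicates 1, 2 and 3 and had a mean of 10.32 ± 0.44 (SD, n = 3), 4.07 above the threshold (SE 0.20, limma adjusted p = 3.95e-05). The probe set 1450443_PM_at read 9.56, 9.47 and 8.77. The first was therefore highest on replicate 3 and the second lowest there, with differences from the mean of the others of 0.76 and -0.74. After quantile normalization the differences were 0.36 and -1.16, so the opposite directions remained. The remaining probe set, 1458284_PM_at, read 6.71, 6.85 and 6.72, 0.51 above the threshold (limma adjusted p = 0.0170). It lost its call without replicate 1 (0.127) or replicate 2 (0.213), against the 99th percentile of receptor genes (0.416), and against both higher backgrounds.

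Mbnl1 encodes muscleblind-like 1, which binds pyrimidine-flanked GC steps in RNA and favours the splice forms of differentiated cells. Its brightest probe set, 1457924_PM_at, read 9.05, 9.10 and 9.81 on replicates 1, 2 and 3, a mean of 9.32 ± 0.42 (SD, n = 3) that was 3.07 above the threshold (SE 0.21, limma adjusted p = 9.79e-05). A second, 1416904_PM_at, read 7.87, 8.08 and 8.87 and was above background as well (adjusted p = 0.0012). The last, 1440315_PM_at, read 5.21, 5.09 and 6.85, over the threshold on replicate 3 and under it on the others, and was not called (-0.53 from the threshold, adjusted p = 1). All 3 were highest on replicate 3, by 0.73, 0.90 and 1.70 over the mean of the others, and by 0.30, 0.49 and 1.41 after quantile normalization.

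RefSeq lists more than 1 start for Mbnl1, and the windows around the listed starts (250 bases before to 50 after, GRCm38.p6, plus strand) differ in base composition. They are shown because a start of low and a start of high GC content belong to the same gene. No source used here assigns the Mbnl1 probe sets to either start. The first, chr3:60472580-60472879, has 39.3% G and C, and the second, chr3:60500929-60501228, has 75%. The median over all 32851 promoter windows was 52.7%. Neither holds the motif CAGGTG, on either strand, so no base is in capitals.
Mbnl1 first start: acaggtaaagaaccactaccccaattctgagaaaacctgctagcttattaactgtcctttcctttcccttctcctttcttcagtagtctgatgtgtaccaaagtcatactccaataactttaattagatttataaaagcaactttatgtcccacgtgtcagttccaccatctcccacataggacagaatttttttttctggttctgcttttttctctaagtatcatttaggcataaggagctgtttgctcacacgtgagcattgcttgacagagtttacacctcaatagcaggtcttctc
Mbnl1 second start: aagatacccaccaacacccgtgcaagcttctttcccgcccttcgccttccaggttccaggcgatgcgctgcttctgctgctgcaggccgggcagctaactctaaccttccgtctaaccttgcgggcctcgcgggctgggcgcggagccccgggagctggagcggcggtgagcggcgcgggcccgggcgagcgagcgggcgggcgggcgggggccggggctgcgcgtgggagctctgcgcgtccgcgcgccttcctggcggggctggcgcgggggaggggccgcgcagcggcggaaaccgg

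Celf1, which binds GU-rich RNA and often opposes Mbnl proteins, had 5 probe sets, of which 4 were above background. The brightest, 1426407_PM_at, read 10.001, 9.997 and 10.946 on replicates 1, 2 and 3, a mean of 10.31 ± 0.55 (SD, n = 3) that was 4.06 above the threshold (SE 0.24, limma adjusted p = 6.28e-05). The probe set 1426408_PM_at, paired with the same transcript record by the annotation, read 9.68, 9.72 and 9.66. The first was thus 0.95 higher on replicate 3 and the second differed there by -0.04. After quantile normalization these were 0.55 and -0.48.

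The remaining Celf1 probe sets were all highest on replicate 3. The values of 1425932_PM_a_at were 7.80, 7.90 and 8.97, and those of 1423932_PM_at were 7.47, 7.46 and 7.94. The probe set 1427413_PM_a_at read 6.52, 6.63 and 7.90, over the threshold on each array, and was not called (0.76 above, SE 0.33, adjusted p = 0.0743). Its spread of 0.76 (SD, n = 3) was as large as its distance from the threshold. It was called without replicate 1 (0.0172), 2 (0.0206) or 3 (0.0093), tests that have 2 arrays each.

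Srsf1, the founding SR protein, had 3 of 4 probe sets above background. Its brightest, 1434972_PM_x_at, read 8.86, 8.78 and 9.85 on replicates 1, 2 and 3, a mean of 9.16 ± 0.60 (SD, n = 3) that was 2.91 above the threshold (SE 0.26, limma adjusted p = 0.00026). The suffix of this probe set marks probes that may bind other transcripts. Without such probe sets Srsf1 was represented by 1428099_PM_a_at, which read 8.20, 8.12 and 9.21 and was above background (2.27 above the threshold of that setting, adjusted p = 0.0009).

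The other Srsf1 probe sets differed from these. The values of 1452430_PM_s_at, whose suffix also marks probes shared between transcripts, were 8.66, 8.42 and 8.47, with replicate 1 highest. Those of 1428100_PM_at were 5.49, 5.90 and 6.83, over the threshold on replicate 3 alone, and it was not called (-0.18, adjusted p = 1). On replicate 3 the differences from the mean of the others were 1.04, 1.04 and 1.13 for 1434972_PM_x_at, 1428099_PM_a_at and 1428100_PM_at, and -0.07 for 1452430_PM_s_at. After quantile normalization they were 0.60, 0.62, 0.85 and -0.48.

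Zeb and Snail repressors bind the E-box CAGGTG, which reads as CACCTG on the other strand and is a case of the general E-box CANNTG. Since their genes were above the receptor threshold here, the promoter windows were searched for it. RefSeq windows matched 5 of the 8 genes, 6 windows in all, and Esrp1, Esrp2 and Rbfox2 had none. CAGGTG was found in 1 of the 6, that of Srsf1, and in 20.2% of all windows. The grainyhead motif AACCGGTT was in none of the 6 and in 0.146% of all windows. The general form CANNTG was in 3 of the 6 and in 72.3% of all. The Srsf1 window is chr11:88047123-88047422 on the plus strand (GRCm38.p6), with the E-box in capitals, starting 161 bases before the listed start site. A match of letters is a description and not a bound site.
Srsf1: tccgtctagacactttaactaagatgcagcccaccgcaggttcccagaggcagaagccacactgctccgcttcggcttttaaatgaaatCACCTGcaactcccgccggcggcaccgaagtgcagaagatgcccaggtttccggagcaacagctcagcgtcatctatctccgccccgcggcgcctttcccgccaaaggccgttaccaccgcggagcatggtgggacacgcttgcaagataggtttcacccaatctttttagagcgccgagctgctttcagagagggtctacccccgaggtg

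Across the litters, 10 of the 18 probe sets above background were highest on replicate 3, 6 on replicate 1 and 2 on replicate 2. Over all probe sets above background, 64.9% were highest on replicate 3, 20.2% on replicate 1 and 15.0% on replicate 2, so the regulators' share on replicate 3 is near that of the array. A range of 1 or more over the arrays was seen in 5 of the 18, against 15.7% over the array. Those 5 were the probe set of Esrp1, 1425932_PM_a_at of Celf1, 1416904_PM_at of Mbnl1, and 1434972_PM_x_at and 1428099_PM_a_at of Srsf1. After quantile normalization 2 of the 18 had such a range, against 11.3%. Replicates 1 and 2 differed by between 0.004 and 0.43 over the 21 probe sets, with a median of 0.10. Since a litter has 1 array, its differences from the others carry no test, and litter, number of cells and processing cannot be told apart.

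**Figure D3:**
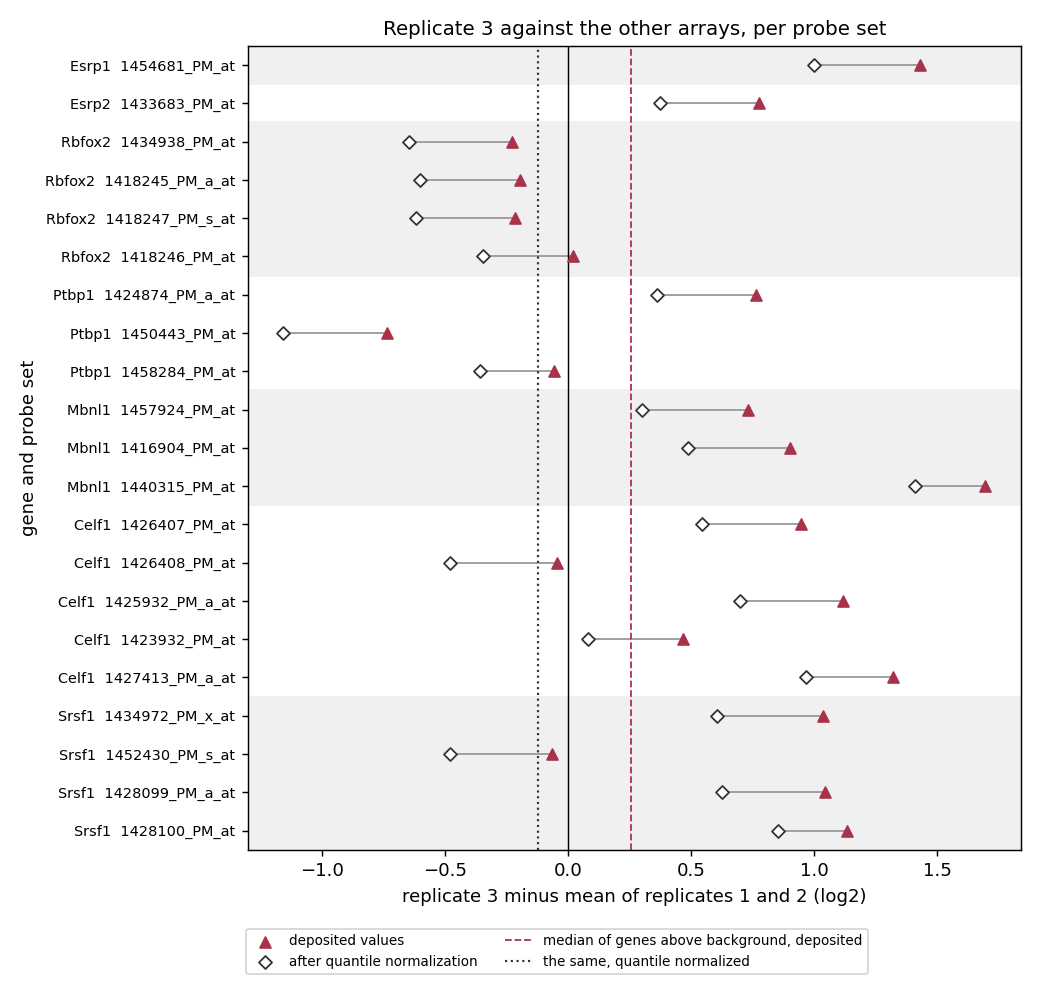
Replicate 3 minus the mean of replicates 1 and 2 (x axis, log2) for each of the 21 probe sets (y axis), as deposited (triangles) and after quantile normalization (diamonds), with the medians of all genes above background as vertical lines (0.26 and -0.12). The 4 Rbfox2 probe sets lie left of the deposited median, Esrp1 lies at 1.43, and Ptbp1, Celf1 and Srsf1 each have probe sets on both sides.

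Probe sets of the same gene disagreed on the litter difference for 3 of the 5 genes that had at least 2 called. The span of the replicate 3 difference was 1.5 for Ptbp1, 1.16 for Celf1 and 1.11 for Srsf1. It was 0.25 for Rbfox2 and 0.17 for Mbnl1. A span of 1 or more was chosen as the limit after these values were seen. It was reached by 21.1% of 3130 such genes on the array, with a median span of 0.56. Ptbp1, Celf1 and Srsf1 had 3, 4 and 3 called probe sets. The 3130 genes had 2 or more and were not matched for that number, which can widen a span. The spans moved little with quantile normalization (1.52, 1.18 and 1.10 for the first 3 genes, and 20.1% over the array). For these 3 genes the litter difference therefore depends on the probe set, and the mean over the probe sets of Ptbp1 gave a difference of -0.011 in place of 0.76.

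Close relatives of the 7 genes were detected in part. Of 15 measured, 10 were above background (52.5% over all genes). They were Mbnl3 (7.85 ± 0.51, SD, n = 3), Celf2 (10.75 ± 0.25), Celf4 (8.47 ± 0.47) and the SR protein genes Srsf2, Srsf3, Srsf4, Srsf6, Srsf9, Srsf10 and Srsf11. The SR protein genes had means between 8.51 and 10.78. Rbfox1 (6.0 ± 0.41) and Rbfox3 (6.16 ± 0.45), relatives of Rbfox2 known from neurons and muscle, were not above background, and neither were Celf3 (4.76 ± 0.07), Celf5 (4.98 ± 0.38) and Srsf12 (5.08 ± 0.15). For Celf4, 1 of its 3 probe sets was above background. Of the 15 relatives, 9 passed the tissue-restricted threshold (25.7% of all genes) and 9 the brightest antigenomic control (31.6%). Mbnl3 lay below the tissue-restricted threshold on replicates 1 and 2. By the brightest probe set of each, all 10 called relatives were higher on replicate 3 than the mean of the others. This held in the deposited values and after quantile normalization, where 68.3% and 40.3% of all genes above background were higher. The medians were 0.67 and 0.29 against 0.26 and -0.12 for all genes above background. Other probe sets of the relatives were not compared.

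Heterogeneous nuclear ribonucleoproteins, the abundant RNA-binding proteins that include many splicing repressors, were all above background, 16 of 16, against 52.5% of all genes. Hnrnpa1 stood at 11.85 ± 0.14 (SD, n = 3), Hnrnpa2b1 at 10.64 ± 0.30 and Hnrnpa3 at 11.54 ± 0.19. Hnrnpa0 read 8.91, 8.99 and 10.86 on replicates 1, 2 and 3, with replicate 3 far above the others. Of other sequence-specific regulators, 18 of 25 were above background (52.5% of all genes). Qk, the quaking gene that promotes mesenchymal splice forms and circular RNA, stood at 9.55 ± 0.54. Rbm47, an epithelial regulator, read 6.40, 6.94 and 7.43 and was above background (adjusted p = 0.0385), but not at the 99th percentile of the receptor genes (adjusted p = 0.197), against the higher backgrounds (tissue-restricted genes and the brightest antigenomic control) or without replicate 2 (adjusted p = 0.0535). Rbm38 (6.92 ± 0.14) was called, but not at that percentile (adjusted p = 0.101), against the higher backgrounds or without replicate 1 (adjusted p = 0.0604). Rbm4 (7.58 ± 0.11) kept its call at that percentile (adjusted p = 0.0022) and lost it against both higher backgrounds. Rbm24 (5.73 ± 0.33), Rbm20 (5.95 ± 0.14) and Nova1 (6.54 ± 0.31), regulators of muscle, heart and neurons, were not above background. Srrm4, a neuronal regulator of the same list, was called (6.75 ± 0.36, limma adjusted p = 0.0376), with 1 of its 3 probe sets above background. Its values lay below the tissue-restricted threshold and the brightest antigenomic control on each array.

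Kinases and partners of the regulators were above background in 8 of 10 cases. The SR protein kinase genes Srpk1 (10.17 ± 0.24, SD, n = 3), Srpk2 (9.59 ± 0.13) and Srpk3 (7.20 ± 0.20) were among them, as was Clk1 (10.91 ± 0.39), and Srpk3 did not pass the tissue-restricted threshold. Clk2 read 6.36, 6.27 and 8.12 on replicates 1, 2 and 3 and was not called, and neither was Zfp326, which read 4.87, 5.08 and 7.96. Both were far higher on replicate 3 than on the other arrays. Of the 10 genes, 7 passed the tissue-restricted threshold (25.7% of all genes) and 7 the brightest antigenomic control (31.6%).

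Transcripts known to be spliced by the regulators were all above background, 18 of 18, against 52.5% of all genes. Against the tissue-restricted genes 15 passed (25.7% of all genes), and against the brightest antigenomic control 15 (31.6%). Fgfr2, whose epithelial and mesenchymal receptor forms differ by an Esrp-controlled exon, read 11.44, 11.66 and 12.11 on replicates 1, 2 and 3. The catenin gene Ctnnd1 (11.09 ± 0.45, SD, n = 3), the actin regulator gene Enah (10.20 ± 0.41) and the hyaluronan receptor gene Cd44 (8.99 ± 0.54) are further Esrp targets. Arhgef11 (9.59 ± 0.10), Slk (9.71 ± 0.27), Scrib (7.41 ± 0.51) and Magi1 (8.80 ± 0.13) were above background too, and Scrib did not pass the tissue-restricted threshold. These values are the sum over splice forms, and no exon was measured. On replicate 3, 12 of the 18 were higher than the mean of the others, against 68.3% of all genes above background.

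**Figure D4:**
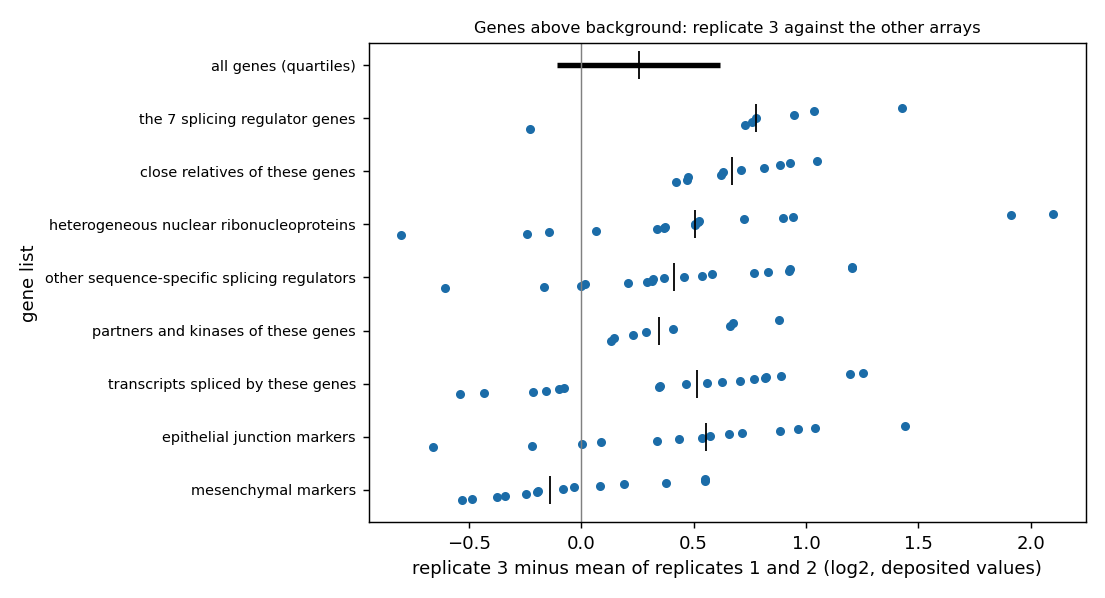
Replicate 3 minus the mean of replicates 1 and 2 (x axis, log2, deposited values) for genes above background in each gene list (y axis), 1 point per gene, with the median as a vertical tick, and for all genes above background the quartiles as a bar. The medians are 0.78 for the 7 splicing regulator genes, 0.56 for epithelial junction markers and -0.14 for mesenchymal markers, against 0.26 for all genes.

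Epithelial and mesenchymal markers both gave a signal in the pools. Of 17 epithelial junction genes 14 were above background, and of 16 mesenchymal genes 14, against 52.5% of all genes. The tissue-restricted threshold was passed by 10 of the epithelial and 12 of the mesenchymal genes, against 25.7% of all genes. The mean log2 value of the epithelial list was 8.36, 8.68 and 9.18 on replicates 1, 2 and 3, and that of the mesenchymal list was 9.86, 9.69 and 9.79. Cdh1, the E-cadherin gene, read 7.02, 7.62 and 8.36, and Epcam read 9.96, 10.22 and 10.75. Vim, the vimentin gene, read 11.94, 11.79 and 11.38. The other named markers were Dsp (11.56 ± 0.10, SD, n = 3) and Jup (9.70 ± 0.52) on the epithelial side and Cdh2 (7.81 ± 0.46), Fn1 (11.30 ± 0.06) and Prrx1 (10.18 ± 0.21) on the mesenchymal side. Of the named markers above background, Cdh1 lay below the tissue-restricted threshold on replicates 1 and 2, and Cdh2 on replicate 2. Pkp1, Cldn1, Cgn, Pdgfra and Meox1 were not above background.

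The replicate 3 difference had a median of 0.56 over the called epithelial genes and -0.14 over the called mesenchymal genes, and 0.14 and -0.30 after quantile normalization. By the brightest probe set of each gene, that of the 7 regulators was 0.78, and 0.37 after quantile normalization, with Rbfox2 alone below 0 in both. Over their 18 called probe sets the median was lower, 0.60, and 0.19 after quantile normalization. With the mean of probe sets in place of the brightest, Ptbp1 was also below 0 (-0.011). On replicate 1 the medians were -0.47 for the epithelial genes, 0.16 for the mesenchymal genes and -0.40 for the regulators, against -0.11 for all genes above background. The part of the cell mixture in the regulators' litter differences was not tested.

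Markers of other cell types were mostly not above background (52.5% of all genes were). The counts were 2 of 10 for endothelial, 2 of 10 for leukocyte, 2 of 6 for erythroid, 2 of 7 for melanocyte, 2 of 7 for neural and Schwann, 2 of 9 for skeletal muscle and 0 of 6 for Merkel cell genes. The pan-leukocyte gene Ptprc (4.03 ± 0.20, SD, n = 3), the endothelial gene Cdh5 (5.81 ± 0.27) and the Schwann and glial gene S100b (5.53 ± 0.27) were among those not called. The 12 called genes were Pecam1 and Egfl7 (endothelial), Cd68 and Fcer1g (leukocyte), Klf1 and Epor (erythroid), Sox10 and Pmel (melanocyte), Tubb3 and Elavl3 (neural) and Myod1 and Myh3 (muscle). Cd68, a macrophage gene, stood at 8.83 ± 0.26 (SD, n = 3; limma adjusted p = 7.7e-05), and it alone of the 12 also passed the tissue-restricted threshold (adjusted p = 0.0070). Sox10, which Schwann and glial cells express too, stood at 8.02 ± 0.22 (limma adjusted p = 0.00025), and Fcer1g at 7.29 ± 0.45. Of the 7 melanocyte genes 5 were not called, Dct, Tyr and Tyrp1 among them. Which cells gave the Sox10 signal was not tested. The called endothelial genes went opposite ways, since Pecam1 read 8.12, 8.30 and 6.47 on replicates 1, 2 and 3, and Egfl7 read 7.26, 6.91 and 7.71. Of the 12, 8 were lower on replicate 3 than the mean of the others and 4 were higher (Egfl7, Cd68, Sox10 and Pmel), and after quantile normalization 10 were lower and 2 higher.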

How the data were processed

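RNA of 3 samples of 1 group was measured on Affymetrix arrays. The authors' deposited values are on a log2 scale, made with RMA and affy per the submitters' processing notes; versions, settings and whether the arrays were normalized together are not given in the sources used here. RMA compresses differences of weak probe sets. Of 45141 probe sets, 28898 had 1 symbol, 551 several and 15692 none (104 of them controls). A gene was represented by its probe set with the highest mean, which favours detection. Each value minus its array's threshold entered an intercept model in limma 3.58.1 (R 4.3.3), with variances moderated by empirical Bayes along a mean trend, a one-sided p for a mean over 0, and Benjamini-Hochberg adjustment over 17097 genes or 28898 probe sets; the uncertainty of the threshold is left out. A range was called at 1 or more. Of the genes, 9258 had an unadjusted p under 0.05. On simulated data for this test (17097 genes), 76%, 84%, 96% and 100% of 50 genes each set 0.5, 1, 2 and 4 above the threshold were called. The simulated noise was independent between genes and the threshold was fixed. A shift shared by genes on an array, as on replicate 3, was therefore not covered by these rates.

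The genes and lists were chosen with earlier results of these data known. The rule for names took the 8 genes, Lgr5, Itga6, Trp63, Krt5 and Krt14, and all relatives and Esrp factors. It also took the first 8 called and 4 uncalled spliced transcripts, and the first 4 called and 3 uncalled genes of each other list. Of other cell types only those of note were printed, and S100b and Srrm4 were chosen after their values were seen. Alternatives were another percentile, other backgrounds, quantile normalization, no trend, other probe set rules and leaving out each array. Python 3.11.15 with numpy 2.4.6, pandas 2.3.3 and matplotlib 3.10.9 was used for the rest. The arrays' number limits the precision.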

Additional observations from a re-analysis of the deposited data

How the results depend on the processing

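The 7 genes were above background under each alternative except the tissue-restricted background, where Esrp1 (1.15, adjusted p = 0.068) and Esrp2 (0.48, adjusted p = 0.240) did not pass. That background gave 4394 genes and 10 of the 21 probe sets above it, in place of 8972 and 18, and the brightest antigenomic control gave 5399 genes. The tissue-restricted threshold was passed by 6 of 10 transcription factors acting on Esrp genes and 10 of 17 epithelial junction genes. It was also passed by 12 of 16 mesenchymal genes and 15 of 18 spliced transcripts. Of endothelial, erythroid, melanocyte, neural, muscle and Merkel cell genes 0 passed it, and of leukocyte genes 1 of 10 (Cd68). Of the 36 tissue-restricted genes themselves 11 were above the receptor threshold. Leaving out 1 array gave 8545 to 9645 genes and 18 to 19 probe sets. Quantile normalization changed the range of Rbfox2 from 0.44 to 0.86 and its replicate 3 difference from -0.23 to -0.65, and for Mbnl1 the range from 0.76 to 0.33 and the difference from 0.73 to 0.30. The mean of probe sets changed the replicate 3 difference of Ptbp1 from 0.76 to -0.011, since its probe sets go opposite ways. For the other changes the cause was not tested. No paired analysis was possible because there is 1 group. Signal near the threshold limits what can be said of Esrp2, Snai1, Snai2, Grhl1, Rbm47, Rbm38, Srrm4 and the weakest probe sets.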
